A study of Mus musculus with 12 samples.

Results

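The miR-322/miR-503 cluster is a group of miR hairpins on the mouse X chromosome that are made from the non-coding host transcript H19X. Its members were chosen by name, as the 10 rows of the count table that hold the mature products *miR-322-5p*, *miR-322-3p*, *miR-503-5p*, *miR-503-3p*, *miR-351-5p*, *miR-351-3p*, *miR-542-3p*, *miR-542-5p*, *miR-450a-5p* and *miR-450b-5p* (listed as mmu-miR-322-5p, mmu-miR-503-3p, mmu-miR-351-5p and so on), out of 1927 rows, 682 of them with any count. The rule of choice used no measured value, but earlier results of these data were known when it was made. miR-seq, a sequencing readout of small RNAs, was carried out on whole liver at E18.5 from 5 WT and 7 Mir483Pat-KO female fetuses, with 1 library per fetus. Mir483Pat-KO fetuses inherited from the father a deletion of *Mir483*, an imprinted miR gene inside *Igf2* that is expressed from the paternal copy. The deletion was made in JM8.F6 ES cells (C57BL/6N), 2 clones were used to make chimeras in albino blastocysts (C57BL/6J-Tyrc-2J), and the colony was then crossed to C57BL/6J. WT fetuses were littermates, but the litter of each fetus is not in the labels, and the clone behind each fetus was not given in the sources used here.

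Total counts lay between 658665 and 1211160 per library, so that 3 counts, the floor used here, equalled 2.48 to 4.55 CPM (counts divided by the library's total and put on a common scale). The liver miR *miR-122-5p* took 11.8% to 16.5% of each library. The deleted miR was low where the labels place the deletion: *miR-483-3p* had 733 to 1281 counts in WT and 0 to 19 in Mir483Pat-KO, and *miR-483-5p* had 245 to 371 and 0 to 4. The library index numbers were 37 to 41 for WT libraries and 42 to 48 for Mir483Pat-KO libraries, so index order and genotype cannot be told apart between the groups. In a bulk library of whole liver, fewer cells of a type and less RNA per cell cannot be told apart either.

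A miR hairpin is cut into a duplex, of which the strand from its 5′ side (5p) or its 3′ side (3p) is loaded into an Argonaute protein. The loaded strand finds target mRNAs mainly through its seed, the bases 2 to 8 from its 5′ end, so miRs from unrelated loci that share a seed share many predicted targets. *miR-322-5p* (the mouse counterpart of human miR-424) and *miR-503-5p* are known for repressing cell cycle genes, as is the *miR-15* and *miR-16* family, and *miR-351-5p* carries the seed of the *miR-125* family, the vertebrate relatives of worm *lin-4*.

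The 7 hairpin genes lie on the minus strand of chromosome X, between bases 53047997 and 53054349 of GRCm38, a span of 6353 bases. GENCODE annotates them as miR genes, in the order *Mir322* (chrX:53054255-53054349), *Mir503* (chrX:53053984-53054054), *Mir351* (chrX:53053255-53053353), *Mir542* (chrX:53049403-53049487), *Mir450-2* (chrX:53048299-53048367), *Mir450-1* (chrX:53048154-53048244) and *Mir450b* (chrX:53047997-53048078). The gap between neighbours was 200 bases from *Mir322* to *Mir503*, 630 bases from *Mir503* to *Mir351* and 3767 bases from *Mir351* to *Mir542*. The 3 *Mir450* hairpins followed *Mir542* after 1035 bases, with 54 and 75 bases between them. A non-coding gene, *Gm28730*, is annotated between *Mir351* and *Mir542*, and the transcript *C430049B03Rik* lies upstream of *Mir322*, 696 bases away.

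The mature sequences of the members are shown because arm use and seed pools, below, turn on them. They are 21 to 24 bases long, are taken from RefSeq (GRCm38.p6) and run 5′ to 3′, with the seed in capitals.
miR-322-5p: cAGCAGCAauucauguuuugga
miR-322-3p: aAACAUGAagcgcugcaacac
miR-503-5p: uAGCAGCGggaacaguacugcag
miR-503-3p: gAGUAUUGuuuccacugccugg
miR-351-5p: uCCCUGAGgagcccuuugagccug
miR-351-3p: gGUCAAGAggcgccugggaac
miR-542-5p: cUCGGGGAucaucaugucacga
miR-542-3p: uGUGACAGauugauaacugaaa
miR-450a-5p: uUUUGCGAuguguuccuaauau
miR-450b-5p: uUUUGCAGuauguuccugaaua
No 2 of the members have the same seed. The seeds of *miR-322-5p* (AGCAGCA) and *miR-503-5p* (AGCAGCG) are alike up to their last base. *miR-450a-5p* has the same sequence in *Mir450-1* and *Mir450-2*, so its counts cannot be divided between these hairpins. *miR-450a-5p* and *miR-450b-5p* have the same first 6 bases and the same base at 15 of 22 positions.

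The cluster was led by *miR-351-5p*, which had a higher level than any other member in 12 of 12 libraries. Its level, as CPM scaled by the trimmed mean of M values (TMM CPM), was 4782, 5529, 5725, 5283 and 5858 in WT replicates 1 to 5, and the lowest, median and highest of the 7 Mir483Pat-KO libraries were 4534, 5017 and 5768. WT averaged 5435 ± 425 (SD, n = 5) and Mir483Pat-KO 5148 ± 431 (SD, n = 7), and the groups overlapped. By mean level it ranked 30 of all rows in the table and held 69.9% ± 2.16 (SD, n = 5) of the members' counts among WT fetuses, against 69.6% ± 2.03 (SD, n = 7) among Mir483Pat-KO fetuses. The 10 members together made up 0.800% ± 0.0722 (SD, n = 5) of the counts of a WT library and 0.725% ± 0.0594 (SD, n = 7) of those of a Mir483Pat-KO library.

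Both products of *Mir322*, the first hairpin, came next. *miR-322-3p* stood at 1378, 1234, 1316, 1239 and 1289 TMM CPM in WT, and its lowest, median and highest values in Mir483Pat-KO were 1009, 1230.2 and 1431. *miR-322-5p*, the strand with the *miR-16* seed, stood at 578, 634, 643, 512 and 498 TMM CPM in WT, and at 474.2, 605 and 633 in Mir483Pat-KO (lowest, median, highest). For *miR-322-3p*, 4 of the 7 Mir483Pat-KO libraries lay below every WT library and 2 above; for *miR-322-5p*, 2 lay below and 0 above. Mean levels were 1291 ± 59.4 (SD, n = 5) and 1229 ± 146 (SD, n = 7) TMM CPM for *miR-322-3p*, and 573 ± 66.9 (SD, n = 5) and 579 ± 69.3 (SD, n = 7) for *miR-322-5p*.

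*Mir503*, 200 bases on, gave far fewer reads. The level of *miR-503-5p* was 25.8, 26.8, 37.6, 17.1 and 38.3 TMM CPM in WT and ran from 23.4 through a median of 36.6 to 46.3 in Mir483Pat-KO, with overlap between the groups. The level of *miR-503-3p* was 16.3, 19.6, 14.8, 18.2 and 15.1 TMM CPM in WT and ran from 7.92 through a median of 10.5 to 14.03 in Mir483Pat-KO. For *miR-503-3p* all 7 Mir483Pat-KO libraries lay below every WT library.

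At the far end of the cluster, *miR-450a-5p* had 197, 193, 193, 179 and 173 TMM CPM in WT and 108, 158 and 195 in Mir483Pat-KO (lowest, median, highest), and 4 of the 7 Mir483Pat-KO libraries lay below every WT library. *miR-542-3p* had 161, 149, 204, 159 and 168 TMM CPM in WT and 118, 154 and 171 in Mir483Pat-KO, with 2 of 7 below every WT library. *miR-450b-5p* had 53.2, 62.8, 72.5, 79.1 and 48.3 TMM CPM in WT and 67.9, 70.8 and 88.3 in Mir483Pat-KO, where the Mir483Pat-KO libraries sat in the upper part of the WT range or above it. The remaining members, *miR-542-5p* and *miR-351-3p*, are the minor strands of their hairpins. *miR-542-5p* had 2 to 12 counts in WT and 0 to 8 in Mir483Pat-KO, and *miR-351-3p* had 3 counts in WT replicate 2 and 0 in the other 11 libraries, which at these depths allows up to 2.48 to 4.55 CPM. No row had a count of 1 in any library, and this limit does not allow for that.

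**Figure D1:**
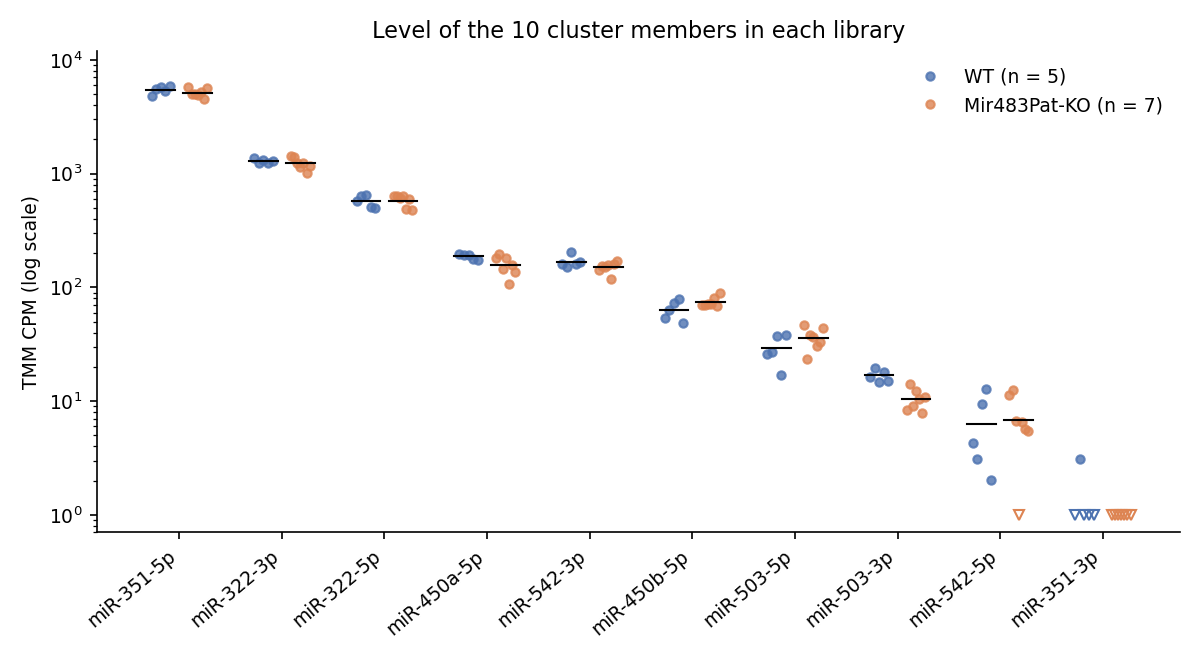
Level of each member in each library (TMM CPM, log axis), ordered by mean level. Circles are libraries of 5 WT and 7 Mir483Pat-KO fetuses, horizontal lines are group means where the mean is above 1 TMM CPM, and open triangles at the foot mark libraries with 0 counts. *miR-351-5p* leads in every library, and *miR-503-3p* is the member whose groups stand apart, at 14.8 to 19.6 TMM CPM in WT and 7.92 to 14.03 in Mir483Pat-KO.

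The order of levels was the same for most neighbours in every library. *miR-351-5p* was 4.20-fold above *miR-322-3p*, *miR-322-3p* 2.18-fold above *miR-322-5p*, and *miR-322-5p* 3.38-fold above *miR-450a-5p*, each in 12 of 12 libraries. *miR-542-3p* was 2.24-fold above *miR-450b-5p* and *miR-450b-5p* 2.07-fold above *miR-503-5p*, again in 12 of 12 libraries. For these 5 pairs the two-sided exact sign-flip permutation test gave p = 0.000488, the smallest it can give with 12 libraries. In all, 7 neighbour pairs were compared. *miR-503-5p* was 2.29-fold above *miR-503-3p* in 11 of 12 libraries (exact p = 0.000977). The neighbours *miR-450a-5p* and *miR-542-3p* did not differ beyond their spread, a ratio of 1.067 with *miR-450a-5p* higher in 7 of 12 libraries (exact p = 0.176). These folds compare reads per mature strand, which are of nearly equal length, and adapter ligation can favour some sequences over others by an amount that was not measured here.

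**Figure D2:**
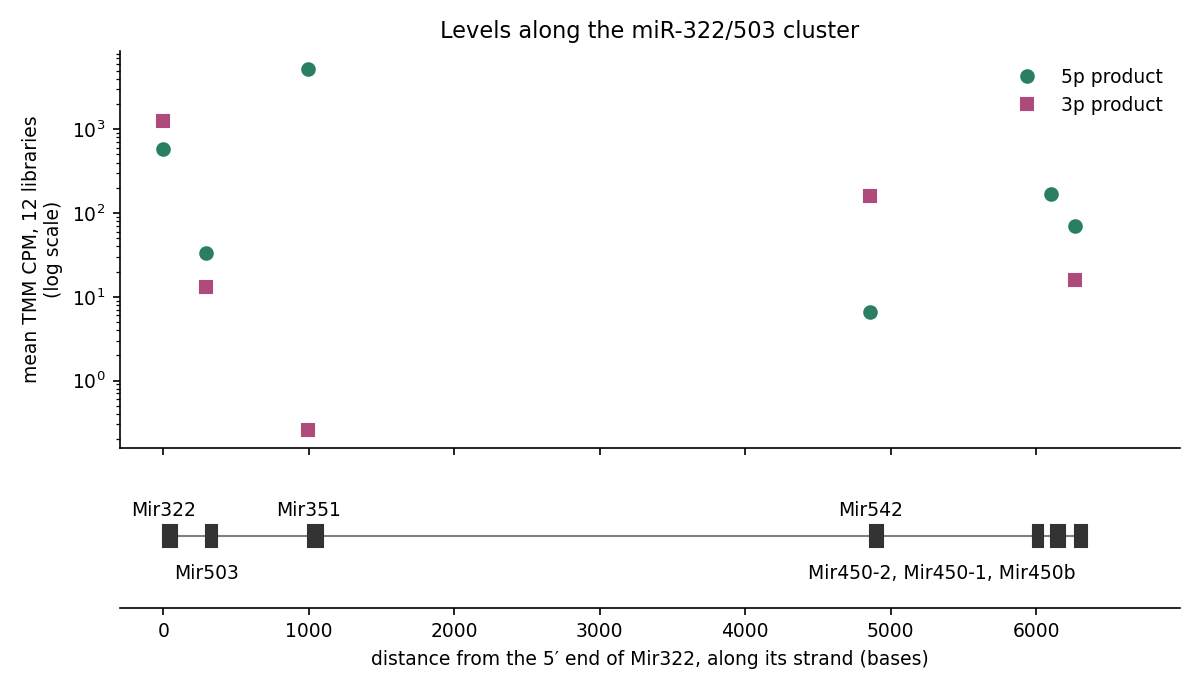
Mean TMM CPM over 12 libraries (log axis) of the 5p and 3p members, with *miR-450b-3p*, against the distance of their hairpin from the 5′ end of *Mir322* (bases), above a map of the 7 hairpins drawn to scale. *miR-450a-5p* is drawn at *Mir450-1* but has the same sequence in *Mir450-2*. Levels do not fall steadily along the locus: *Mir503*, 200 bases after *Mir322*, gives 33.1 and 13.1 TMM CPM between neighbours whose leading strands stand at 1255 and 5268.

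Members also differed in their spread between fetuses of the same genotype. As a coefficient of variation of TMM CPM, it was 8.13% for *miR-351-5p*, 9.47% for *miR-322-3p* and 11.9% for *miR-322-5p*, where counting alone would give 1.499%, 3.07% and 4.53% at their mean counts. It was 11.8% for *miR-542-3p*, 14.5% for *miR-450a-5p* and 14.2% for *miR-450b-5p*, where counting alone would give 8.64%, 8.31% and 13.1%. For comparison, the median over all 388 rows tested was 16.9%, and over the 198 rows with a mean of at least 100 TMM CPM it was 10.6%. At *miR-503-3p*, with 6 to 19 counts per library, the spread of 16.3% was below the 29.7% that counting alone would give.

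The genotypes were compared to ask whether loss of the paternal *Mir483* goes with a change of the cluster. None of the 8 members that passed the filter on low counts was called by edgeR's quasi-likelihood F-test at a Benjamini-Hochberg adjusted p under 0.05, against 2.06% of all 388 rows tested. At an unadjusted p under 0.05 there was 1 of 8, against 17.5% of all rows. That member was *miR-503-3p*, which passed the filter through the group where it was higher. *miR-351-3p* and *miR-542-5p* did not pass the filter. The median log2 fold change of the members tested, Mir483Pat-KO over WT, was -0.075, against 0.0028 over all rows, and 5 of 8 members were lower in Mir483Pat-KO, against 193 of 388 rows.

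The abundant members had the narrowest intervals, and all of them held 0. The log2 fold change of *miR-351-5p* was -0.078 (SE 0.070, 95% interval -0.23 to 0.070, edgeR adjusted p = 0.661). That of *miR-322-3p* was -0.072 (SE 0.081, 95% interval -0.24 to 0.099, edgeR adjusted p = 0.735), and that of *miR-322-5p* was 0.015 (SE 0.096, 95% interval -0.19 to 0.22, edgeR adjusted p = 0.973). The *Mir542* and *Mir450* products were spread more widely. *miR-450a-5p* was at -0.25 (95% interval -0.51 to 0.011, edgeR adjusted p = 0.331), *miR-542-3p* at -0.15 (-0.37 to 0.064, edgeR adjusted p = 0.480) and *miR-450b-5p* at 0.24 (-0.057 to 0.53, edgeR adjusted p = 0.446). These intervals do not cover the choice of covariates. With the library index number as a covariate, the estimate of *miR-322-5p* moved to 0.40 (edgeR adjusted p = 0.759), outside the interval above, and those of *miR-322-3p* and *miR-450a-5p* turned to 0.24 and 0.17 (edgeR adjusted p = 0.980 for both). In the same fit *miR-542-3p* was at -0.30 and *miR-450b-5p* at 0.030. The index numbers of the groups do not overlap, so this fit cannot tell genotype from index order, and its SEs are not given here. Leaving out 1 library moved *miR-322-3p* between -0.13 (without Mir483Pat-KO replicate 1) and -0.029 (without Mir483Pat-KO replicate 6). It moved *miR-351-5p* between -0.13 (without Mir483Pat-KO replicate 1) and -0.050 (without WT replicate 5), and *miR-450b-5p* down to 0.15 (without WT replicate 5).

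The products of *Mir503* had the estimates farthest from 0, in opposite directions. *miR-503-3p* was at -0.69 (SE 0.27, 95% interval -1.27 to -0.12, edgeR adjusted p = 0.191), and *miR-503-5p* was at 0.31 (SE 0.23, 95% interval -0.17 to 0.79, edgeR adjusted p = 0.528). *miR-503-5p* was at 0.17 without WT replicate 4 and at 0.43 without WT replicate 5. The filter bears on *miR-503-3p*, which was at the filter's level of 11.8 CPM in 5 of 5 WT libraries and in 2 of 7 Mir483Pat-KO libraries, and so passed through the group where it was higher. Its difference is therefore given as a description. It was the single member of the 8 whose groups did not overlap in TMM CPM, against 2.84% of all 388 rows. The labels number the animals in a lower and a higher range. The 8 fetuses with numbers under 450, 4 of each genotype, averaged 17.2 TMM CPM in WT and 10.9 in Mir483Pat-KO. The higher animal numbers hold 1 WT fetus, at 15.1 TMM CPM, and 3 Mir483Pat-KO fetuses, at 7.92 to 10.9. Groups apart over all libraries are also apart within each range, so the ranges are no further test. With the library index number as a covariate, *miR-503-3p* was at -0.56 (edgeR adjusted p = 0.980) and *miR-503-5p* at 0.19 (edgeR adjusted p = 0.985).

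**Figure D3:**
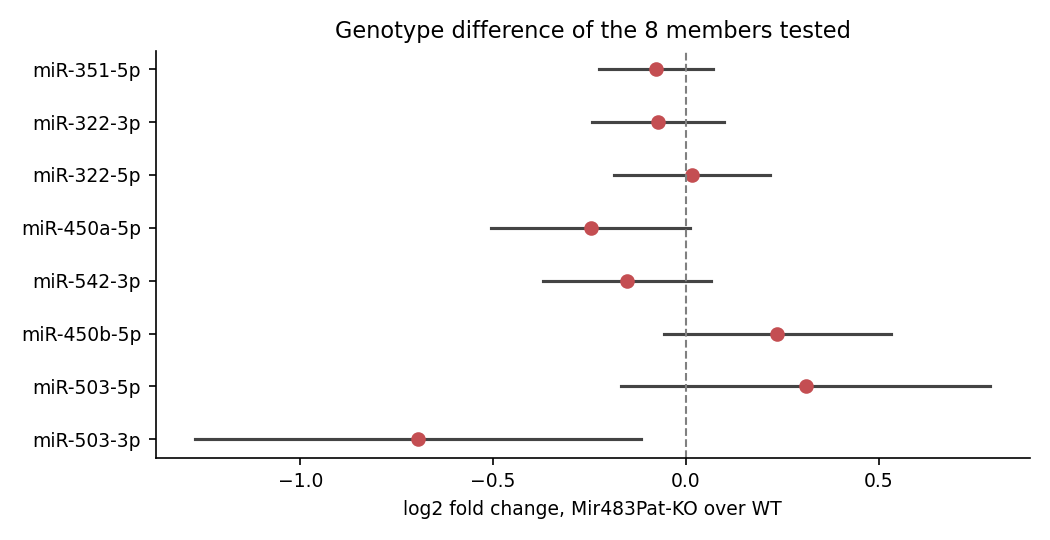
Log2 fold change of the 8 members tested, Mir483Pat-KO (n = 7) over WT (n = 5), from edgeR, ordered by level with the most abundant at the top. Points are estimates and lines are 95% intervals. The interval of *miR-503-3p*, from -1.27 to -0.12, is the one that lies wholly on one side of 0, and its adjusted p over all rows is 0.191. It passed the filter through WT, where it was higher, so its interval is a description.

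The ratio of 5p to 3p counts within a library needs no scaling between libraries, and was compared for the 95 hairpins whose strands both passed the filter. *Mir322*, *Mir503* and *Mir450b* were among them. *Mir322* was read mainly from its 3p side: *miR-322-3p* exceeded *miR-322-5p* 2.26-fold in WT and 2.12-fold in Mir483Pat-KO. The 5p share of the counts from *Mir322* was 29.6%, 33.9%, 32.8%, 29.2% and 27.9% in WT replicates 1 to 5 and 28.1% to 37.01% in Mir483Pat-KO. *Mir450b* gave mainly 5p reads, with a WT mean of 81.3% ± 3.58 (SD, n = 5) and a Mir483Pat-KO mean of 81.6% ± 6.52 (SD, n = 7). Its 3p strand, *miR-450b-3p*, has the same first 18 bases as *miR-450a-1-3p*, so its counts are uncertain.

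*Mir503* gave 61.2%, 57.8%, 71.8%, 48.5% and 71.7% 5p reads in WT replicates 1 to 5. In Mir483Pat-KO the lowest, median and highest shares were 62.5%, 80.0% and 84.6%, and 6 of 7 libraries lay above every WT library. WT averaged 62.2% ± 9.89 (SD, n = 5) and Mir483Pat-KO 76.8% ± 7.27 (SD, n = 7). On the log2 scale the 5p to 3p ratio of *Mir503* differed by 0.99 (SE 0.31, 95% interval 0.31 to 1.67, limma adjusted p = 0.127 over the 95 hairpins). *Mir503* is among the 95 because *miR-503-3p* passed the filter through WT, so this difference is a description too. It was 0.75 with the library index number as a covariate (limma adjusted p = 0.940). Of the 3 member hairpins, 0 passed the adjusted threshold by limma and 1 had an unadjusted p under 0.05, against 1.05% and 17.9% of all 95 hairpins. None of the 3 had groups that did not overlap, against 2.11% of the 95. The difference was 0.091 for *Mir322* (95% interval -0.18 to 0.36, limma adjusted p = 0.831) and 0.10 for *Mir450b* (-0.61 to 0.81, limma adjusted p = 0.903). Within the fetuses with animal numbers under 450, the 5p share of *Mir503* was 59.8% in WT and 75.8% in Mir483Pat-KO (4 of each), and the groups overlapped. These fetuses are part of the same libraries, so this is no further test. The *Mir503* ratio rests on 331 5p and 136 3p reads in all libraries together, and contains the counts of *miR-503-3p* described above.

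The other hairpins gave almost all reads from one side. *miR-351-3p* had 3 reads in all libraries together, against 53440 of *miR-351-5p*, or 0.00561% of the reads of *Mir351* (exact 95% interval 0.00116% to 0.0164%, counting error only). No row had a count of 1 in any library, and whether single reads were dropped was not given in the sources used here. A 0 may therefore stand for a single read, which this interval does not cover. *miR-542-5p* had 65 reads, against 1609 of *miR-542-3p*, or 3.88% of the reads of *Mir542* (exact 95% interval 3.01% to 4.92%, counting error only). Its share ran from 0% to 7.48% in single libraries, a spread that the interval of the pooled reads does not cover. *Mir542*, like *Mir322*, was thus read mainly from its 3p side. The 3p strands of the *miR-450a* hairpins, *miR-450a-1-3p* and *miR-450a-2-3p*, had at most 5 counts in any library.

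**Figure D4:**
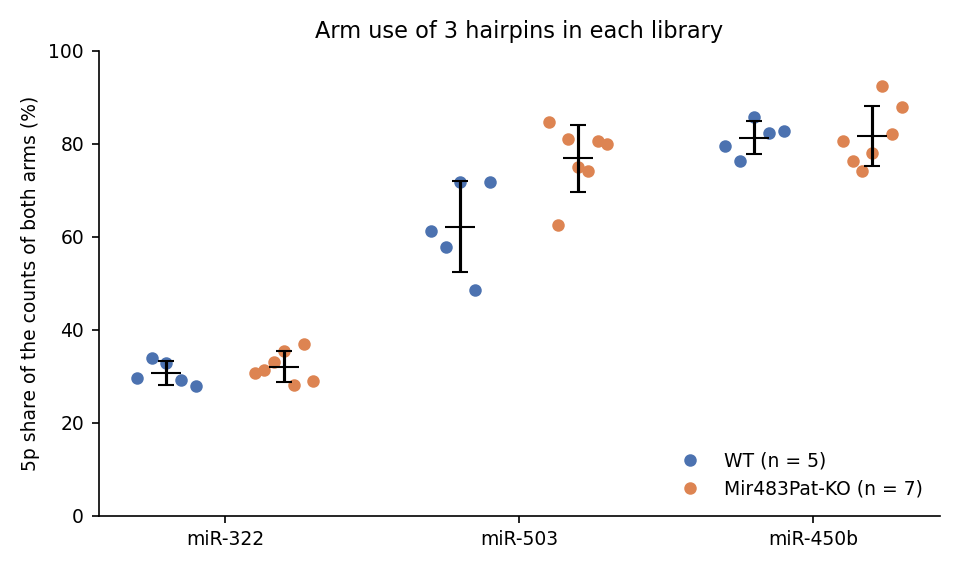
Share of 5p reads among the reads of both strands (percent) for *Mir322*, *Mir503* and *Mir450b*. Circles are libraries, and black marks with bars are group means with SD, for 5 WT and 7 Mir483Pat-KO. *Mir322* lies between 27.9% and 37.01% in all libraries, and *Mir503* averages 62.2% in WT and 76.8% in Mir483Pat-KO with some overlap.

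Seed pools, the summed counts of rows with the same bases 2 to 8, place the members beside miRs of other loci. A sequence was found for 1660 of the 1927 rows, and rows with a known seed held 78.3% of all counts. *miR-322-5p* shares AGCAGCA with 5 other rows that had counts. It held 33.5% ± 2.30 (SD, n = 5) of that pool among WT fetuses, and 31.2% ± 2.69 (SD, n = 7) among Mir483Pat-KO fetuses, close to *miR-16-5p* with 35.8% and 34.2%. *miR-15a-5p* held 22.5% and 25.3%, and *miR-15b-5p* 7.14% and 8.03%. *miR-322-5p* was above *miR-15a-5p* in 11 of 12 libraries and above *miR-16-5p* in 3 of 12. Its share did not pass the test between genotypes (two-sided exact permutation p = 0.165, adjusted p = 0.627 over the 92 rows that share a seed with another tested row).

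*miR-351-5p* held nearly the whole CCCUGAG pool of the *miR-125* seed. Its share was 93.0%, 92.7%, 92.9%, 93.1% and 93.2% in WT replicates 1 to 5, and 93.3%, 94.0% and 94.9% in Mir483Pat-KO (lowest, median, highest), so that every Mir483Pat-KO library lay above every WT library. The means were 93.0% ± 0.176 (SD, n = 5) and 94.0% ± 0.570 (SD, n = 7), a difference of 0.998 percentage points (two-sided exact permutation p = 0.00379, adjusted p = 0.0871 over the 92 rows). Of the 2 member shares, 0 passed the adjusted threshold and 1 had an unadjusted exact permutation p under 0.05, against 0% and 13% of the 92 rows, and 1 of 2 had groups that did not overlap, against 2.17%. The rest of the pool was mainly *miR-125a-5p*, with 370 ± 25.9 (SD, n = 5) TMM CPM for WT and 292 ± 36.1 (SD, n = 7) for Mir483Pat-KO, and a log2 fold change of -0.34 (SE 0.089, edgeR adjusted p = 0.0620). The share of *miR-125a-5p* differed by -0.993 percentage points. The level of *miR-351-5p* itself was not higher in Mir483Pat-KO, with a log2 fold change of -0.078 (edgeR adjusted p = 0.661). Among the 8 fetuses with animal numbers under 450, the share of *miR-351-5p* was 92.9% in WT and 93.6% in Mir483Pat-KO. Groups apart over all libraries are also apart in any part of them, so this is no further test. Over all libraries *miR-351-5p* stood 16.3-fold above *miR-125a-5p*. No other row with counts and a known seed, 584 of 682, carried the seed of any other tested member.

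The co-variation of members over fetuses asks how far the mature products of one locus moved together. With genotype means removed, the Pearson r of log2 TMM CPM over the 28 pairs of tested members had a median of 0.053 and ran from -0.58 to 0.79, with 17 pairs above 0. Over all 75078 pairs of tested rows the median was -0.0016. Among the 10 member pairs in which both averaged at least 100 TMM CPM the median was 0.23, against 0.0039 over all such pairs. All points share libraries and scaling, and members with few reads carry more counting error. No member pair passed the permutation test after adjustment over all pairs, against 0% of all pairs. The smallest p that 100000 permutations can give is 1e-05, so a lone pair could not pass over 75078 pairs. At an unadjusted permutation p under 0.05 there were 2 of 28, against 6.92% of all pairs.

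The 2 strands of *Mir322* themselves had r = 0.22 (rho 0.29, permutation p = 0.531, adjusted p = 0.946), and *miR-351-5p* and *miR-322-3p*, the most abundant members, r = 0.38 (rho 0.20, permutation p = 0.264, adjusted p = 0.883). The highest value was that of *miR-322-5p* with *miR-450a-5p*, which lie at opposite ends of the cluster: r = 0.79 (rho 0.74, permutation p = 0.000555, adjusted p = 0.424 over all pairs). Without Mir483Pat-KO replicates 5 and 7, the libraries farthest from the median of *miR-322-5p*, it was 0.64, and it was 0.43 in the 8 fetuses with animal numbers under 450. The lowest was that of *miR-503-5p* with *miR-503-3p*, at r = -0.58 (rho -0.49, permutation p = 0.0446, adjusted p = 0.710). It was -0.32 without WT replicate 4 and Mir483Pat-KO replicate 2.

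**Figure D5:**
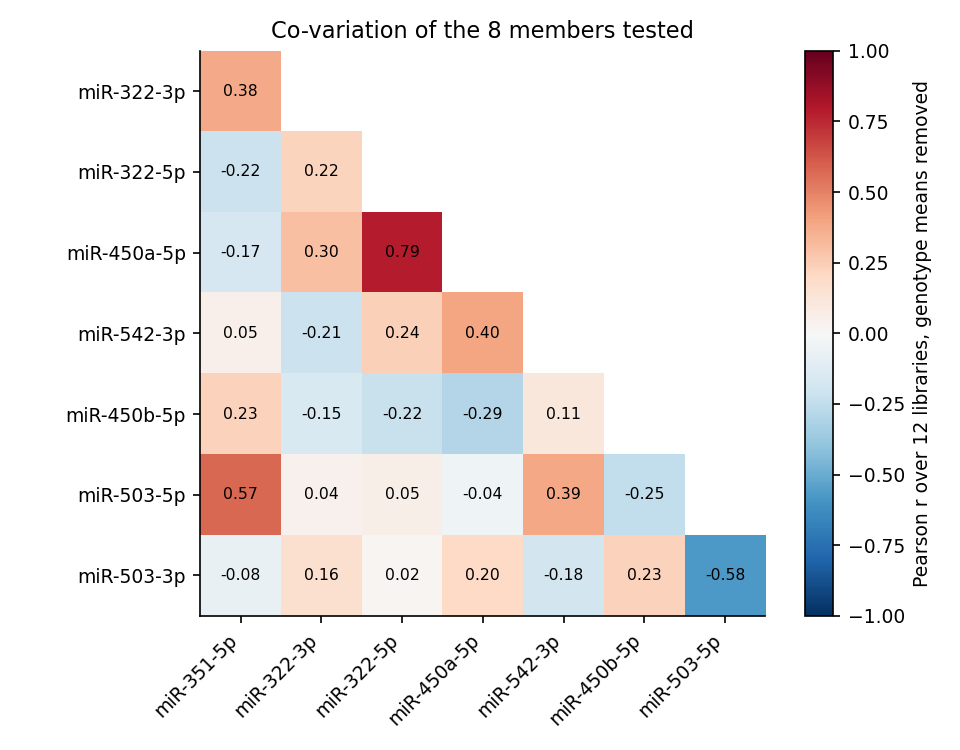
Pearson r of log2 TMM CPM for each pair of the 8 tested members over 12 libraries, with genotype means removed, in order of level. Red is positive and blue negative. The pair *miR-322-5p* and *miR-450a-5p* stands at 0.79, and the strands of *Mir503* at -0.58.

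Outside the cluster, the rows most like *miR-351-5p* over the 12 libraries, among 193 others with at least 100 TMM CPM, were *miR-145a-5p* (r = 0.80), *miR-376b-3p* (r = 0.77) and *miR-296-5p* (r = 0.76), given as a description because they are the highest of 193. *miR-675*, the product of *H19* after which H19X is named, did not follow *miR-351-5p*, with r = -0.33 (rho -0.25, permutation p = 0.330, adjusted p = 0.906) for *miR-675-5p* and r = -0.13 (rho -0.24, permutation p = 0.698, adjusted p = 0.972) for *miR-675-3p*. *miR-322-3p* and *miR-675-5p* had r = -0.80 (rho -0.68, permutation p = 0.0133, adjusted p = 0.593), and -0.74 without the 2 libraries farthest from the median of *miR-322-3p*. *miR-675-5p* had 0 counts in Mir483Pat-KO replicates 1 and 2, where *miR-322-3p* stood highest in that group, at 1431 and 1390 TMM CPM. The libraries left out were Mir483Pat-KO replicates 1 and 6, so 1 library with 0 counts remained. *miR-542-3p* and *miR-675-3p* had r = -0.71 (rho -0.66, permutation p = 0.0162, adjusted p = 0.614), and -0.54 without the 2 farthest. Every other pair of a tested member with a *miR-675* strand had an unadjusted permutation p above 0.05. Among all pairs of tested rows, 6.92% had one under 0.05.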

How the data were processed

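miR-seq counts from livers of E18.5 WT (n = 5) and Mir483Pat-KO (n = 7) female fetuses were analysed. The authors prepared TruSeq small RNA libraries, aligned and counted reads with miRge 3.0, and deposited whole-number counts per mature miR, not normalized or pooled. The miR reference and adapter trimming were not given in the sources used here. Genotypes and replicate numbers came from the labels. Rows have either 0 or at least 2 counts in a library. The members and lists were chosen with earlier results of these data known.

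Rows were filtered with filterByExpr (minimum count 10, minimum total 15), scaled by TMM and compared with glmQLFit (legacy = TRUE) and glmQLFTest in edgeR 4.0.16 (R 4.3.3), with Benjamini-Hochberg adjustment over 388 rows; the study names edgeR 3.42.4. Strand ratios (pseudocount 0.5) were compared with limma 3.58.1. Single values were compared by two-sided exact permutation of genotype, and neighbours in level by exact sign flips. Correlations used log2 TMM CPM (prior count 2) and 100000 permutations within genotype. Pair correlations and seed shares were adjusted over all tested pairs or rows, in place of the member list alone. Log2 fold changes are Mir483Pat-KO over WT. Floors and the exact intervals of strand shares cover counting error only, and PCR copies are not independent molecules. They do not allow for the missing counts of 1. The edgeR and limma intervals also hold the spread between libraries. Code was tested on simulated data.

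Named miRs were the members, other products of their hairpins, *miR-483*, *miR-675*, rows holding at least 5% of a member's seed pool, and the 3 rows most like *miR-351-5p*. Positions are from GENCODE and sequences from RefSeq, both on GRCm38, the build named for the samples. Alternatives were other scalings, filters, tools (DESeq2 1.42.0, limma-voom), dispersions, covariates, pseudocounts and seed lengths, and leaving out each library.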

Additional observations from a re-analysis of the deposited data

How the results depend on the processing

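No member was called under any of the 12 other settings of the genotype comparison or with any 1 library left out. The number of rows called among all tested was 8, and 14 with library size alone, 27 with DESeq2, 5 with animal-number range as a factor, 3 with the library index number as a covariate, and 3 to 12 with 1 library left out (3 without WT replicate 3). DESeq2 gave *miR-503-3p* no adjusted p. The estimate of *miR-322-5p* (0.015) turned to -0.052 with library size alone, -0.0083 with no filter, -0.0052 with at least 10 counts in every library, rose to 0.40 with the library index number as a covariate, and ran from -0.032 to 0.054 with 1 library left out. With that covariate, *miR-322-3p* turned to 0.24, *miR-450a-5p* to 0.17 and the strand ratio of *Mir450b* to -0.91, and the ratio of *Mir503* was 0.75 (limma adjusted p = 0.940). The ratio of *Mir450b* ran from -0.11 to 0.22 with 1 library left out. That of *Mir503* ran from 0.79 to 1.16 in the same fits, with limma adjusted p from 0.0673 to 0.253. Hairpins called numbered 1, and 0 to 5 with 1 library left out (5 without WT replicate 4, 2 without Mir483Pat-KO replicate 4). The median member correlation was 0.20 with library size alone and ran from -0.0012 (without WT replicate 3) to 0.12 with 1 library left out. The median over all pairs with library size alone is not given here, so the 0.20 has no background beside it. The fold change of *miR-503-3p* stayed below 0 under every setting that gave it a value, from -0.64 to -0.80 with 1 library left out. The cause of these shifts was not tested. For the order of levels, the WT libraries alone were not run, since 5 libraries cannot pass an exact sign-flip test at 0.05.

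Same-numbered fetuses are different animals. The deviations of the 5 same-numbered pairs correlated at -0.24 to 0.23, with 1 of 5 WT libraries closest to its own number. These values gave no ground for pairing by number, but 5 pairs are too few to tell whether litters were shared. With the replicate block, 3 rows and 0 hairpins were called, no member was called, and the strand ratio was -0.010 for *Mir450b* and 0.89 for *Mir503* (limma adjusted p = 0.491).

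Depth limits the *Mir503* and minor strands, at 19 counts or fewer per library for *miR-503-3p*. By Dixon's test, no library stood apart in the 26 groups of member values examined.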
